A study of Homo sapiens with 12 samples.

Results

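The response of SH-SY5Y cells to HPPE was measured by setting 3 libraries from treated cells against 3 solvent controls, 6 of the 12 libraries of the series, and reading every gene that passed a filter on low counts. SH-SY5Y is a human neuroblastoma line of sympathetic (noradrenergic) type, used widely as a neuron-like cell in culture. HPPE was given at 5 µM for 5 h. All wells, the controls included, received 10 µL of DMSO in 2 mL of medium, so the DMSO group differed from the HPPE group in the compound alone as the labels describe it. The labels do not spell out the name HPPE, and the study's title places it among activators of the transcription factor NRF2. Zinc protoporphyrin (ZnPP) and tin protoporphyrin (SnPP), each at 5 µM for 5 h with 3 libraries, were used here only to ask which parts of the HPPE response differed from theirs, and they share the DMSO libraries with HPPE. No source says whether the 3 libraries of a group came from separate cultures, so p-values measure only the spread between these libraries, which may be technical. Of 60710 genes in the count table, 16366 passed the filter and were tested.

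The 6 libraries held between 1514595 (DMSO 3) and 8578158 (HPPE 2) counts, and a count of 3, taken as the floor of detection, corresponded to 0.349 to 1.91 CPM, which are counts brought to a common library size with TMM factors. The floor allows for counting error alone, because molecules carried no identifiers. HPPE 2 and HPPE 3 were the most alike of the 12 pairs of libraries within a group, with a chi-square of 1.14 per gene against 1.61 to 24.9 in the other pairs. They still differed beyond sampling noise, which does not show that they came from separate cultures. The main fit counted them as 2 libraries, and a fit with the 2 summed is given below. Sums over markers were taken in CPM of the total counts, without TMM factors, so they are not on the scale of the other CPM. Noradrenergic markers such as HAND2 and DBH summed to 4671 to 5101 CPM in the DMSO libraries and 4601 to 4641 CPM in the HPPE libraries. The 7 mesenchymal neuroblastoma markers summed to 908 to 983 CPM in DMSO and 1075 to 1096 CPM in HPPE, and their part in the results below was not tested. These 7 did not move together. FOSL2 and CD44 rose (adjusted p = 4.53e-04 and 1.47e-04 by edgeR). VIM, FN1 and TWIST2 were higher without passing the test (adjusted p = 0.14, 0.64 and 0.43). NOTCH2 was lower without passing it (adjusted p = 0.41), and PRRX1 did not pass the filter. Of 5 leukocyte markers 2 were at 0 and 4 at or under the floor in all 6 libraries, and endothelial markers summed to at most 1.32 CPM. Values written with ± are means and SD over 3 libraries unless marked as SE. Fibroblast markers summed to 423 to 454 CPM in DMSO and 382 to 403 CPM in HPPE.

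As background, NRF2 is held at a low level by KEAP1, which marks it for degradation. Electrophiles and oxidants modify cysteines of KEAP1, NRF2 then accumulates, pairs with small MAF proteins and binds antioxidant response elements near genes for glutathione synthesis, thioredoxin reduction, NADPH supply, quinone reduction and heme breakdown. The repressor BACH1, which is released from DNA by heme, binds many of the same elements. A second stress pathway runs through HSF1, which binds heat shock elements when unfolded proteins occupy chaperones, and another through MTF1, which binds metal response elements when free zinc rises.

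HPPE changed 662 genes (4.04% of the tested genes) at an adjusted p under 0.05, raising 421 (2.57%) and lowering 241 (1.47%). Increases were larger than decreases: 125 genes rose and 17 fell by at least 2-fold, and the median log2 fold change was 0.70 among the genes called higher and -0.48 among those called lower. The 3 HPPE and 3 DMSO libraries did not overlap for 417 of the 421 genes called higher and 235 of the 241 called lower, against 11.9% and 9.44% of all tested genes that were separated in those directions. Together the genes called higher made up 30831 CPM in DMSO and 48235 CPM in HPPE, and those called lower 23764 and 17652 CPM. In bulk RNA, a change in the amount of a transcript per cell and a change in the share of cells that hold it cannot be told apart. Across 18 alternative ways of processing the counts, 168 of the genes called higher and 41 of those called lower lost their call under none (1 of them could be tested under 17 only), among them 82 of the 125 that rose by at least 2-fold. The counts themselves moved when 1 library was left out, a fit with 1 library fewer in its group. Without DMSO 1, 2 and 3 and HPPE 1, 2 and 3 in turn, 220, 218, 559, 309, 215 and 248 genes were called higher. In the same order 66, 73, 475, 129, 69 and 83 genes were called lower.

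**Figure D1:**
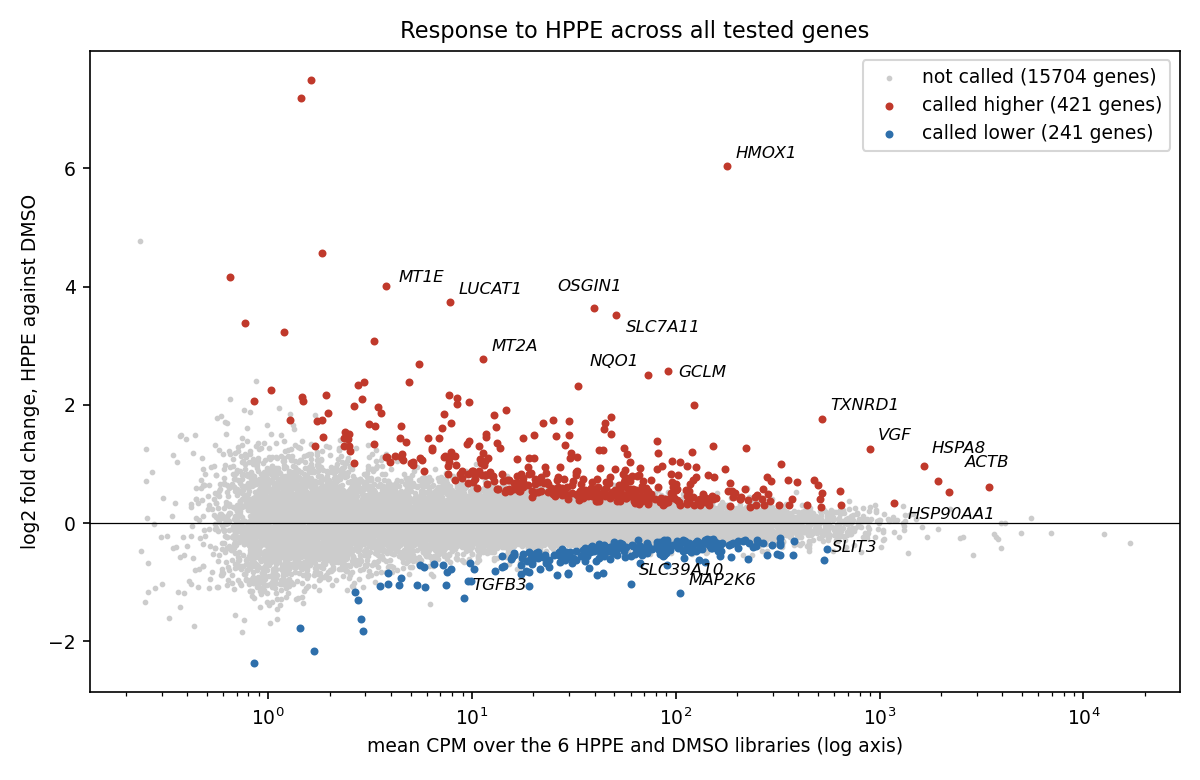
Each point is 1 of the 16366 tested genes, plotted by its mean CPM over the 6 libraries (log axis) and its log2 fold change in HPPE against DMSO. The 421 genes called higher (red) reach much larger changes than the 241 called lower (blue), and HMOX1 stands at 6.04. Values of genes at the far left rest on few counts.

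In the glutathione and thioredoxin systems 4 of 13 and 3 of 16 tested genes rose with HPPE, among them SLC7A11, GCLM and TXNRD1 by more than 3-fold, and 1 thioredoxin gene fell. HMOX1, the heme oxygenase that splits heme, stood at 5.42, 4.62 and 7.66 CPM in the DMSO libraries and 332, 365 and 358 CPM in the HPPE libraries (log2 fold change 6.04 ± 0.22 (SE), adjusted p = 2.62e-11). SLC7A11, the exchanger that brings cystine into the cell for glutathione synthesis, stood at 9.92, 6.34 and 8.30 CPM in the DMSO libraries and 100, 87.4 and 91.8 CPM in the HPPE libraries. Every HPPE library was far above every DMSO library, and the log2 fold change was 3.51 ± 0.27 (SE), adjusted p = 4.01e-07. GCLM, the modifier subunit of the enzyme that makes the first bond of glutathione, stood at 25.7, 27.2 and 26.2 CPM in the DMSO libraries and 163, 156 and 154 CPM in the HPPE libraries, with no overlap (log2 fold change 2.58 ± 0.12 (SE), adjusted p = 3.65e-10). GCLC, the catalytic subunit of the same enzyme, changed much less, from 39.5 ± 5.53 to 60.6 ± 2.20 CPM (log2 change 0.57, adjusted p = 0.0019). The glutathione reductase GSR rose from 92.5 ± 2.93 to 158 ± 2.87 CPM (log2 change 0.77, adjusted p = 7.56e-06). Of the 13 tested genes of glutathione and cystine handling, 4 rose and none fell, and their median log2 fold change was 0.40 against 0.02 over all tested genes.

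TXNRD1, the cytosolic thioredoxin reductase, was among the transcripts that gained most CPM. It stood at 250.4, 239.8 and 216 CPM in the DMSO libraries and 767, 817 and 835 CPM in the HPPE libraries. The groups were widely apart and each was tight (log2 fold change 1.77 ± 0.09 (SE), adjusted p = 2.65e-09). SRXN1, which repairs overoxidised peroxiredoxins, rose from 1.44 ± 0.156 to 4.82 ± 0.777 CPM (log2 change 1.68, adjusted p = 9.87e-04). TXNIP, which binds and restrains thioredoxin and limits glucose uptake, fell from 112 ± 11 to 68.0 ± 5.99 CPM (log2 change -0.71, adjusted p = 0.0019). Over the 16 genes of this list 3 rose and 1 fell, with a median of 0.17. NADPH, which both systems consume, is supplied in part by the pentose phosphate pathway and malic enzyme, and 3 of 13 genes of this list rose, among them ME1 (from 25.5 ± 2.22 to 62.1 ± 4.58 CPM, log2 change 1.24, adjusted p = 1.33e-05) and TKT (from 234 ± 11.1 to 333 ± 16.6 CPM, log2 change 0.50, adjusted p = 6.85e-04). The other 10 members did not pass the test, and the median of the list was 0.07.

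Detoxification genes rose over a wide range of sizes. NQO1, which reduces quinones in a single step, stood at 20.1, 22 and 24.9 CPM in the DMSO libraries and 112, 126 and 133 CPM in the HPPE libraries, and the lowest HPPE library was several times the highest DMSO library (log2 fold change 2.51 ± 0.15 (SE), adjusted p = 1.16e-08). OSGIN1, a stress-induced growth inhibitor, rose from 6.0 ± 0.864 to 73.7 ± 4.25 CPM (log2 change 3.64, adjusted p = 1.97e-09). ABCC3, an exporter of conjugated compounds, rose from 11.2 ± 0.914 to 54.8 ± 1.5 CPM (log2 change 2.32, adjusted p = 3.81e-09). AKR1C3, an aldo-keto reductase whose reads may be shared with near-identical AKR1C copies, rose from 4.29 ± 1.83 to 15.1 ± 1.54 CPM (log2 change 2.04, adjusted p = 1.52e-04). PIR and NQO2 rose less, with log2 fold changes of 0.94 (adjusted p = 0.0023) and 0.83 (adjusted p = 0.011). In all 9 of the 22 tested genes rose and none fell, with a median of 0.33.

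In the handling of heme and iron 7 of 23 genes rose and none fell (median 0.24). FTH1 and FTL, the chains of the iron store ferritin, have many processed copies in the genome, so their counts are less certain than those of single-copy genes. FTH1 stood at 189, 201 and 276 CPM in the DMSO libraries and 397, 461 and 446 CPM in the HPPE libraries, without overlap (log2 fold change 0.99 ± 0.13 (SE), adjusted p = 1.53e-04), and FTL rose from 392.2 ± 76.5 to 609.9 ± 93.1 CPM (log2 change 0.65, adjusted p = 0.01). ABCB6, a porphyrin transporter, rose from 5.36 ± 1.76 to 11.3 ± 1.38 CPM (log2 change 0.98, adjusted p = 0.015). FECH, which inserts iron into protoporphyrin to form heme, rose from 49.6 ± 2.92 to 64.9 ± 5.03 CPM (log2 change 0.42, adjusted p = 0.019). The call on FTL was lost under 5 of the 18 alternatives, that on FECH under 5 and that on ABCB6 under 3.

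Among 13 regulators of NRF2, 4 rose and none fell. SQSTM1, the autophagy receptor p62 that binds KEAP1, stood at 89.6, 92.8 and 79.8 CPM in the DMSO libraries and 204, 223 and 229 CPM in the HPPE libraries, with no overlap (log2 fold change 1.3 ± 0.09 (SE), adjusted p = 4.74e-08). MAFG, a small MAF partner of NRF2, rose from 128 ± 8.92 to 174 ± 5.32 CPM (log2 change 0.45, adjusted p = 0.0018), KEAP1 from 72.9 ± 4.64 to 96.7 ± 7.29 CPM (log2 change 0.42, adjusted p = 0.015) and BACH2 from 48.7 ± 7.52 to 71.1 ± 3.38 CPM (log2 change 0.50, adjusted p = 0.034). Transcripts of NFE2L2, which encodes NRF2, stood at 45.4 ± 3.21 CPM in DMSO and 56.6 ± 4.54 CPM in HPPE and did not pass the test (log2 fold change 0.29 ± 0.10 (SE), adjusted p = 0.11). The same held for BACH1 (log2 fold change 0.25 ± 0.12 (SE), adjusted p = 0.29). The calls on KEAP1 and BACH2 were lost under 5 and 7 alternatives.

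Sequence around the starts of some of these genes is shown because they rose together and share a known type of element. Promoters were taken from RefSeq (GRCh38.p14) as the 250 bases before each annotated transcript start and searched on both strands for TGACNNNGC, the core of the antioxidant response element. Capitals mark the match, which reads GCNNNGTCA where it lies on the opposite strand.
GCLM, chr1:93909431-93909490, minus strand: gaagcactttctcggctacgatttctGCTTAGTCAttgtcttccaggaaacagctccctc
TXNRD1, chr12:104215654-104215713, plus strand: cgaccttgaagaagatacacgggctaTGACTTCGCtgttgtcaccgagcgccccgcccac
TXNRD1, chr12:104286904-104286963, plus strand: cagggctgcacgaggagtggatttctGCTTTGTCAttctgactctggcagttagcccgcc
ME1, chr6:83431155-83431214, minus strand: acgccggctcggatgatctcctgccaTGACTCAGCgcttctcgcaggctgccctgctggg
LUCAT1, chr5:91314423-91314482, minus strand: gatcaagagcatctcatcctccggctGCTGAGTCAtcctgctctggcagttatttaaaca
The match in GCLM begins at position -34 from the start, those in the 2 listed starts of TXNRD1 at -99 and -102, that in ME1 at -137 and that in LUCAT1 at -54. LUCAT1 is a noncoding transcript that stood at 0.794, 1.45 and 0.638 CPM in the DMSO libraries and 16.4, 12.2 and 15.5 CPM in the HPPE libraries, with no overlap (log2 fold change 3.74 ± 0.32 (SE), adjusted p = 1.32e-06). It is annotated as antisense, and the strand setting of the counting is not given in the sources used here, so reads from an overlapping gene on the other strand cannot be separated. The matches of ME1 and LUCAT1 also hold TGACTCA or its reverse complement, the AP-1 site, and a match is a description of the letters, not a measured binding site. Of 19 promoters listed for 17 genes called higher in the glutathione, thioredoxin, NADPH, detoxification and heme lists, 6 held the core (31.6%). Over all 35116 listed promoters the share was 10.9%, over those of tested genes 11.8%, and over the 509 promoters of genes called higher 12.8%. The lists were chosen with earlier results of these data known, so the 31.6% is a description. Some genes, HMOX1 and SLC7A11 among them, had no listed promoter. The AP-1 site was held by 2.87% of promoters of tested genes and 5.50% of those of genes called higher. Among genes called higher at least 2-fold the AP-1 share was 10.85% and the core share 15.5%.

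**Figure D2:**
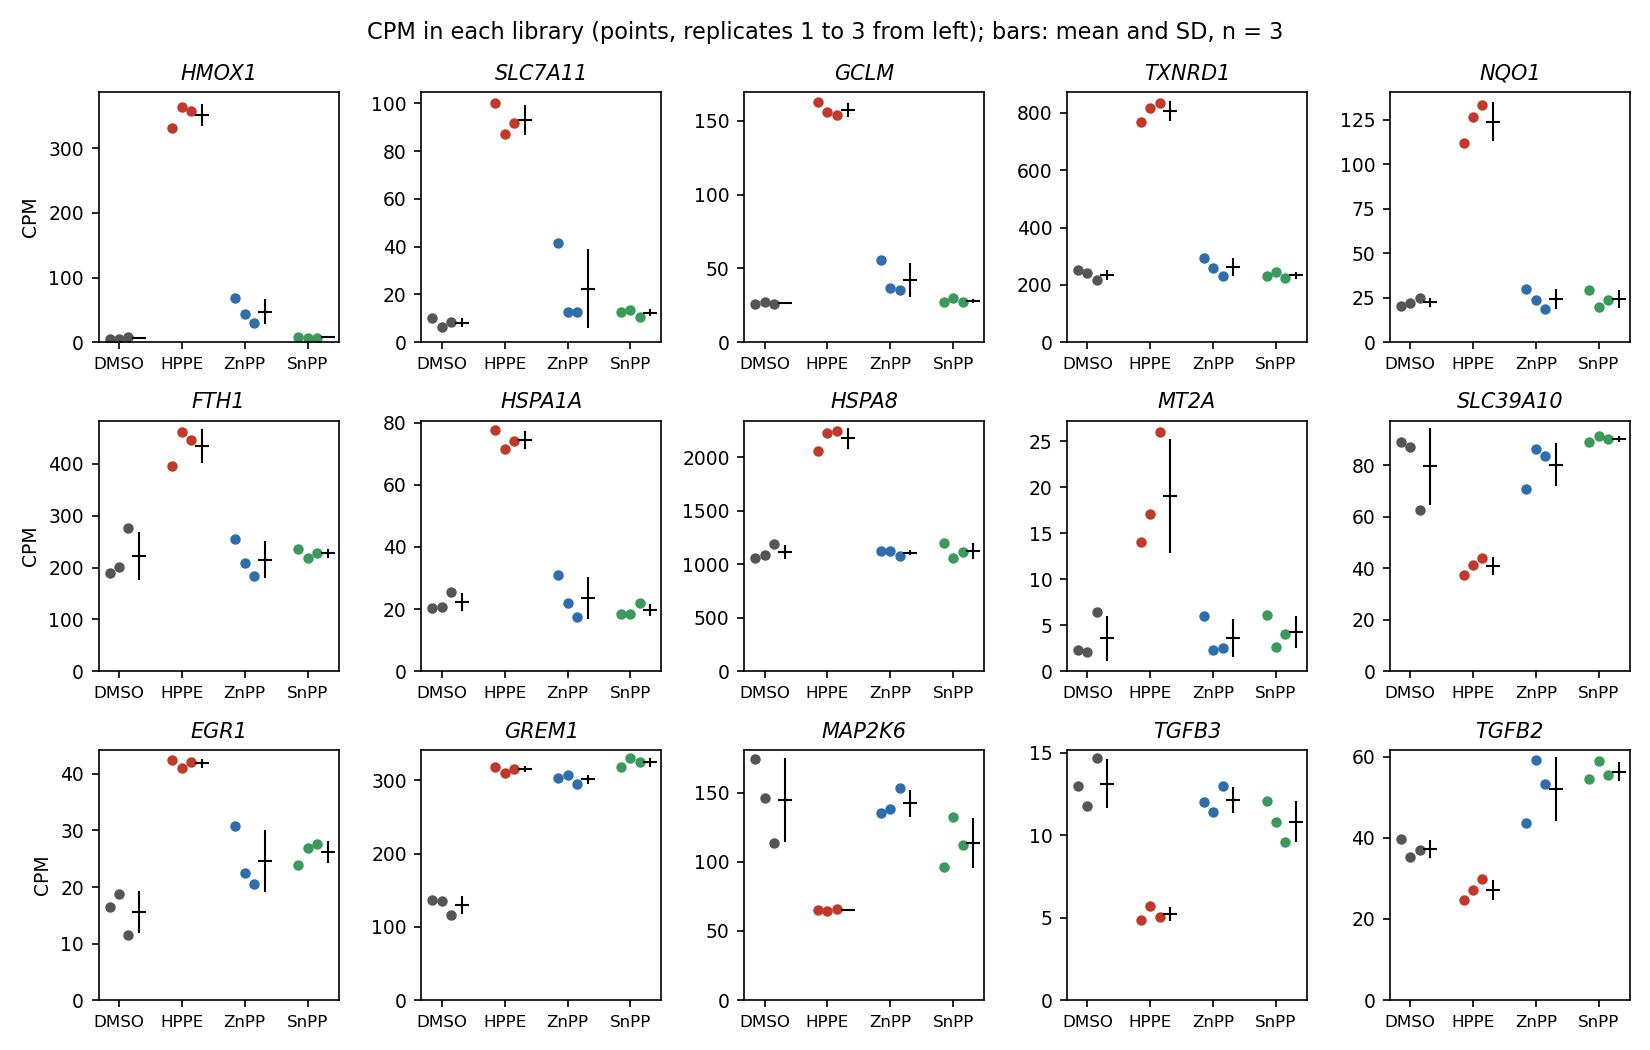
CPM of 15 genes in each of the 12 libraries, 1 panel a gene, with points for replicates 1 to 3 of each group and bars for mean and SD (n = 3). The HPPE libraries lie apart from all others for the redox, chaperone and metal genes and for SLC39A10, MAP2K6 and TGFB3, GREM1 is between 295 and 330.4 CPM with all 3 compounds, and ZnPP 1, the shallowest library, is the highest ZnPP library for SLC7A11, GCLM and HMOX1.

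Cytosolic chaperones formed the list with the most genes called higher by number: 16 of 33 rose, none fell, and the median log2 fold change was 0.43. Over all tested genes 2.57% were called higher. By share, SRF and YAP targets (14 of 22) and metal-response genes (6 of 10) stood above the chaperones. HSPA8, the constitutive HSP70, stood at 1063, 1087 and 1186 CPM in the DMSO libraries and 2060.2, 2226 and 2246 CPM in the HPPE libraries. Its HPPE libraries were all well above the DMSO libraries, and the gain came to 1065 CPM (log2 fold change 0.97 ± 0.08 (SE), adjusted p = 1.34e-06). The inducible HSP70 genes HSPA1A and HSPA1B are near-identical and may share reads. HSPA1A stood at 20.4, 20.7 and 25.5 CPM in the DMSO libraries and 77.5, 71.6 and 74.1 CPM in the HPPE libraries (log2 fold change 1.80 ± 0.14 (SE), adjusted p = 2.79e-07), and HSPA1B rose from 25.5 ± 2.67 to 70.4 ± 3.29 CPM (log2 change 1.5, adjusted p = 5.00e-05). DNAJB4, a co-chaperone of the HSP40 family, rose from 15.3 ± 1.72 to 44.5 ± 2.53 CPM (log2 change 1.48, adjusted p = 7.54e-07), and the small heat shock protein HSPB8 from 3.74 ± 0.148 to 12 ± 1.40 CPM (log2 change 1.69, adjusted p = 2.51e-05). HSP90AA1, the inducible HSP90, rose from 1792 ± 125 to 2592 ± 2.73 CPM (log2 change 0.53, adjusted p = 0.0017), and its co-chaperones STIP1 and FKBP4 from 215 ± 10.7 to 320.3 ± 15.6 CPM and from 176 ± 9.20 to 261 ± 13.4 CPM (adjusted p = 2.71e-04 and 2.46e-04). HSPH1 (0.73), DNAJA1 (0.73), DNAJB1 (0.57) and HSPB1 (0.96) rose by the log2 fold changes given. Calls on 13 of the 16 held under all 18 alternatives. In the chaperone list, as in the glutathione, NADPH, detoxification, heme and NRF2 regulator lists, no gene was lower at an unadjusted p under 0.05 by edgeR or called lower by DESeq2.

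The cytosolic chaperonin TRiC and its partner prefoldin, and the chaperones of mitochondria and the endoplasmic reticulum, were listed separately. Of 14 subunits of TRiC and prefoldin 1 rose, CCT3, whose call was lost under 10 alternatives, and the median was 0.24. After the correction for transcript length and GC content described below, 4 of the 14 were called higher (4.32% of all tested genes). HSPD1, the mitochondrial HSP60, rose from 439.6 ± 21.2 to 578 ± 16.3 CPM (log2 change 0.40, adjusted p = 0.0056), alone among 14 mitochondrial chaperones and proteases (median 0.09). In the endoplasmic reticulum 4 of 22 genes rose (median 0.27), led by HSPA5, the chaperone BiP, from 300.1 ± 14.8 to 483 ± 32.8 CPM (log2 change 0.69, adjusted p = 3.48e-04). The sensor output XBP1 rose from 55.5 ± 8.18 to 79.0 ± 5.43 CPM (log2 change 0.56, adjusted p = 0.037), a call lost under 8 alternatives. Of 25 ATF4 targets 2 rose, GDF15 (from 7.23 ± 3.16 to 18.9 ± 0.552 CPM, log2 change 1.63, adjusted p = 3.48e-04) and SLC1A5 (from 111 ± 1.76 to 145 ± 3.0 CPM, log2 change 0.39, adjusted p = 0.013), and DDIT3 did not pass the test (2.74 ± 0.556 against 4.53 ± 0.820 CPM, adjusted p = 0.13). Among 38 proteasome genes 33 had positive values and 1 rose, PSMA3, with a median of 0.21. Over all tested genes 8552 of 16366 had positive values and 2.57% were called higher. Ubiquitin supply had no call among 10 genes by edgeR, with 4 genes higher at an unadjusted p under 0.05 and 2 called by DESeq2. Of 25 autophagy genes 3 rose: SQSTM1, GABARAPL1 (from 8.31 ± 3.41 to 14.5 ± 1.92 CPM, log2 change 0.99, adjusted p = 0.021) and the lysosomal regulator TFE3 (from 42.2 ± 2.72 to 70.6 ± 6.59 CPM, log2 change 0.75, adjusted p = 5.26e-04).

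HSPA8 and HSP90AA1 were the chaperone genes called higher whose listed promoter held the heat shock element on either strand, searched as the blocks GAA, TTC and GAA with NN between them, and their sequence is shown for that reason. Capitals mark the match, which reads as TTC, GAA and TTC on the opposite strand.
HSPA8, chr11:123062156-123062215, minus strand: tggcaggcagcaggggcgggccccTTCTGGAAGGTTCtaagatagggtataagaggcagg
HSP90AA1, chr14:102087097-102087156, minus strand: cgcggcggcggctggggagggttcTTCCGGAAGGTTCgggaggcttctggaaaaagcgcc
The matches begin at -55 in HSPA8, which has 2 within its 250 bases, and at -88 in HSP90AA1. They were 2 of 20 promoters listed for 15 chaperone genes called higher (10%), against 0.441% of all listed promoters. The search asked for all 3 blocks without a mismatch, and no match says only that these letters were not in the window.

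Metal-response genes moved by large factors: 6 of 10 tested genes rose and 1 fell. The metallothioneins, small cysteine-rich proteins that bind zinc and copper, were low in DMSO and near-identical in sequence, so reads may be shared between copies. MT2A stood at 2.25, 2.11 and 6.38 CPM in the DMSO libraries and 14, 17.1 and 26 CPM in the HPPE libraries. The lowest HPPE library was above the highest DMSO library, and the log2 fold change was 2.77 ± 0.36 (SE), adjusted p = 1.56e-04. MT1X rose from 1.69 ± 0.880 to 9.35 ± 1.76 CPM (log2 change 2.7, adjusted p = 0.0024) and MT1E from 0.308 ± 0.275 to 7.28 ± 2.37 CPM (log2 change 4.01, adjusted p = 2.46e-04). MT1F stood at 0.265, 0.396 and 3.19 CPM in the DMSO libraries (counts of 2, 3 and 5) and 4.13, 6.52 and 5.38 CPM in the HPPE libraries. The DMSO value rested on few counts and differed between libraries, with DMSO 3 far above the others. The fitted log2 fold change was 3.08, adjusted p = 0.0019, and 3.95 without DMSO 3. MT1G had counts of 0, 0 and 2 in the DMSO libraries, all under the floor, and 24, 33 and 9 in the HPPE libraries, so no fold is given (adjusted p = 0.013). MT1A, MT1M and MT3 did not pass the filter.

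Zinc carriers moved in opposite directions. SLC30A1, which exports zinc from the cell, rose from 66.7 ± 11.1 to 122 ± 9.12 CPM (log2 change 0.84, adjusted p = 4.63e-04). SLC39A10, which imports zinc, stood at 89.2, 87.1 and 62.5 CPM in the DMSO libraries and 37.3, 41.5 and 44 CPM in the HPPE libraries. Every HPPE library was below every DMSO library, and SLC39A10 fell by a log2 fold change of -1.02 ± 0.11 (SE), adjusted p = 2.34e-05. The regulator MTF1 itself stood at 57.9 ± 8.73 and 49.0 ± 3.65 CPM and did not pass the test (log2 fold change -0.27 ± 0.12 (SE), adjusted p = 0.26). The zinc importer SLC39A14 did not pass it either (0.13, adjusted p = 0.41). Calls on MT2A, MT1X, MT1F, MT1E and SLC30A1 and the decrease of SLC39A10 held in all 18 alternatives.

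Promoters of MT2A and MT1X are shown because metal response elements, TGCACNC or TGCGCNC on either strand, lie there in clusters. Capitals mark the matches.
MT2A, chr16:56608416-56608475, plus strand: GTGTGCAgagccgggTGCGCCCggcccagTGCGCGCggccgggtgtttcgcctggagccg
MT1X, chr16:56682390-56682449, plus strand: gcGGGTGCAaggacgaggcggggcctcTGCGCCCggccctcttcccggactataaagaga
The MT2A promoter held 7 matches in its 250 bases, of which 3 fall in this window, and the MT1X promoter 4, of which 2 fall in the window. These short letters are common: at least 1 was held by 24.8% of all listed promoters and 31.6% of those of tested genes. For genes called higher the share was 26.5% and for genes called lower 37.3%. All 3 promoters listed for metal-response genes called higher held a metal response element. All 3 also held the antioxidant core TGACNNNGC, against 10.9% of all listed promoters and 11.8% of those of tested genes.

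**Figure D3:**
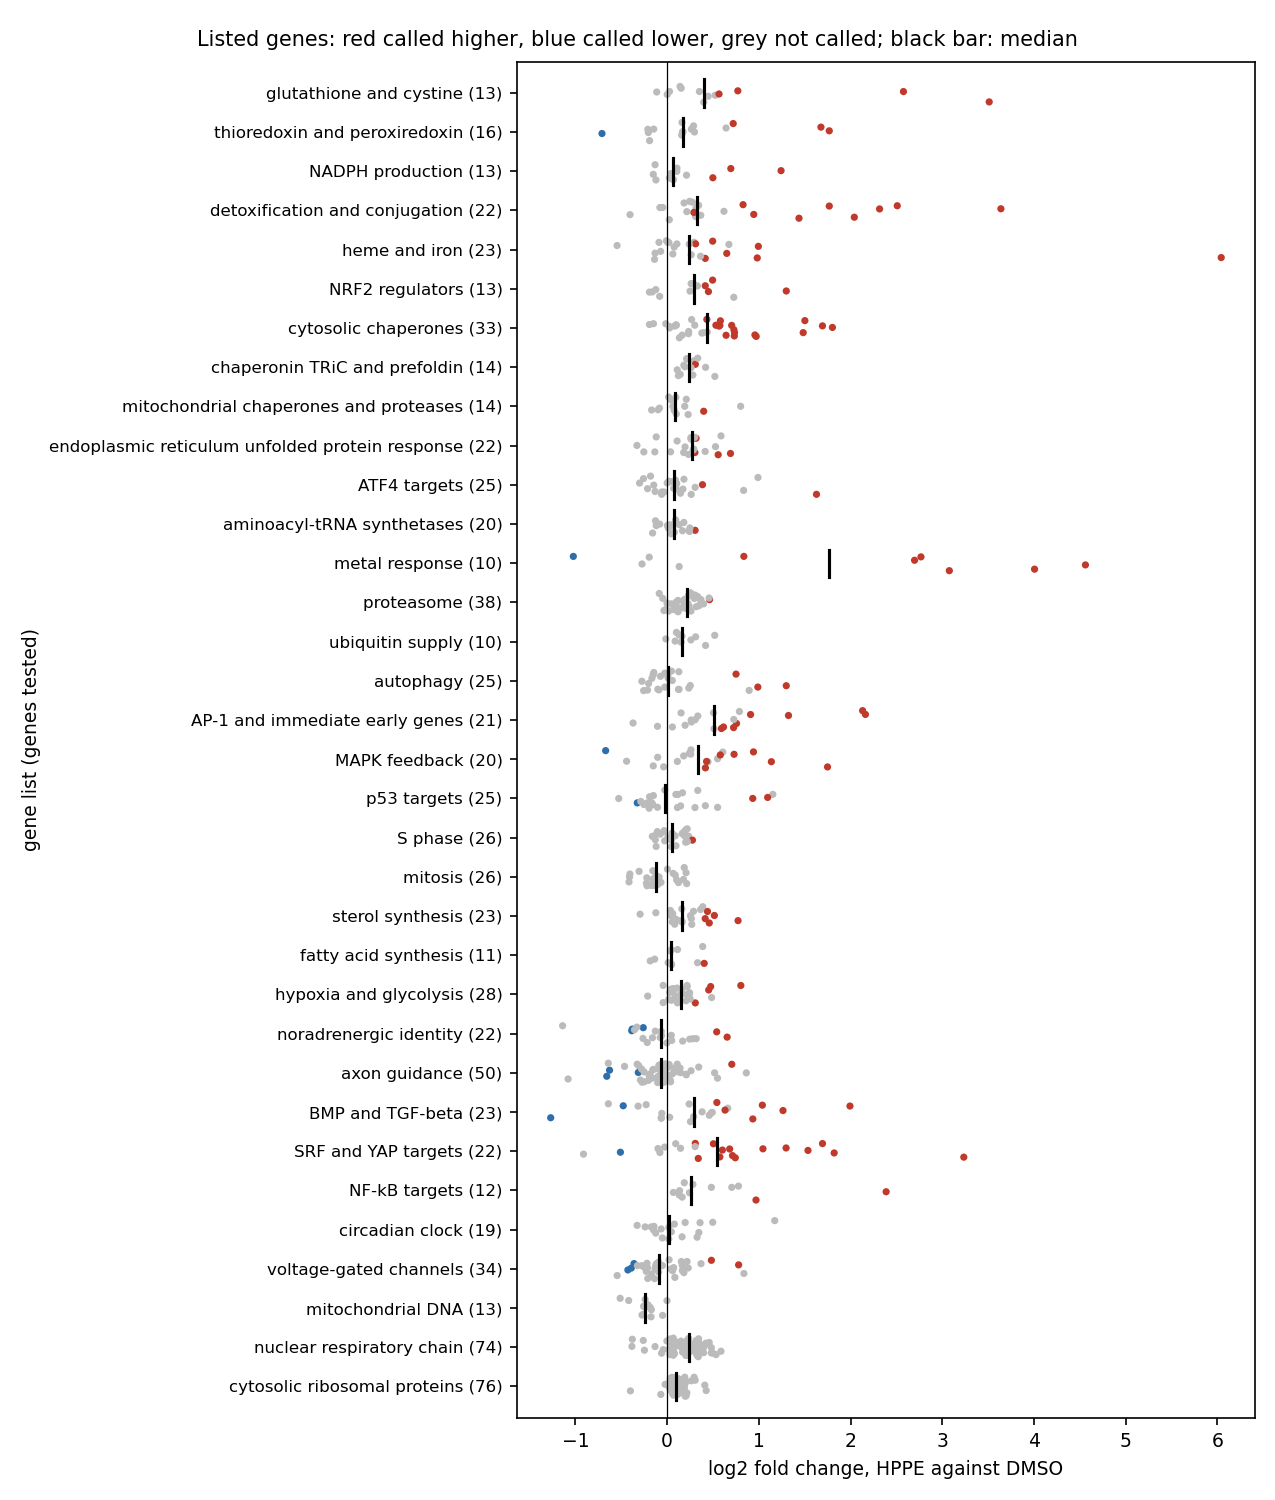
Log2 fold change in HPPE against DMSO of every tested gene of 34 lists, 1 line of points a list, with the number of genes in parentheses and a black bar at the median. Cytosolic chaperones, metal-response genes and SRF and YAP targets hold red points for 16 of 33, 6 of 10 and 14 of 22 genes, while the mitochondrial DNA, respiratory chain and ribosomal lists hold none. The fitted values of MT1G and CCN2, at or under 3 counts in every DMSO library, depend on the prior count of the fit.

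Cytoskeletal and growth-response genes also rose with HPPE. Targets of SRF and YAP, factors that answer to actin dynamics and cell tension, had 14 of 22 genes called higher and 1 called lower (AJUBA), with a median of 0.54. The mesenchymal marker sum given above, taken without TMM factors, was higher in the HPPE libraries too, though not every member was. It was at most 983 CPM in DMSO and at least 1075 CPM in HPPE, and its part in this list was not tested. ACTG1, a cytoplasmic actin, stood at 1438, 1419 and 1554 CPM in the DMSO libraries and 2241, 2475 and 2509 CPM in the HPPE libraries, and the groups did not overlap (log2 fold change 0.71 ± 0.09 (SE), adjusted p = 1.73e-04). Both actins have many processed copies. ACTB, the most abundant of the list, rose from 2749 ± 344 to 4169.8 ± 359 CPM (log2 change 0.60, adjusted p = 0.0099), a call lost under 5 alternatives. CCN1, a secreted matrix protein, rose from 21.2 ± 2.20 to 68.5 ± 9.65 CPM (log2 change 1.69, adjusted p = 2.37e-06), and ANKRD1 from 6.24 ± 2.34 to 19.5 ± 3.29 CPM (log2 change 1.82, adjusted p = 2.21e-05). The focal adhesion protein VCL rose from 142 ± 5.09 to 228 ± 2.59 CPM (log2 change 0.68, adjusted p = 9.26e-05), and TPM4, a tropomyosin, from 433 ± 13.4 to 614 ± 35.8 CPM (log2 change 0.50, adjusted p = 8.25e-04). CCN2 had counts of 0, 1 and 2 in DMSO and 10, 20 and 7 in HPPE, so no fold is given (adjusted p = 0.025).

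Immediate early genes, which rise within minutes to hours of a signal, had 8 of 21 called higher and none lower (median 0.51). EGR1 stood at 16.5, 18.7 and 11.5 CPM in the DMSO libraries and 42.5, 41 and 42.1 CPM in the HPPE libraries, and the lowest HPPE library was above the highest DMSO library (log2 fold change 1.32 ± 0.14 (SE), adjusted p = 1.77e-05). FOSL1, a FOS-family partner of JUN, rose from 2.87 ± 0.654 to 12.5 ± 0.772 CPM (log2 change 2.16, adjusted p = 8.18e-05), JUN from 42.9 ± 0.529 to 72.4 ± 2.29 CPM (log2 change 0.76, adjusted p = 2.37e-04) and KLF6 from 56.6 ± 2.23 to 106 ± 2.44 CPM (log2 change 0.91, adjusted p = 1.65e-06). Feedback genes of the MAP kinase pathways had 7 of 20 called higher and 1 lower (median 0.34). SPRY1, an inhibitor of receptor tyrosine kinase signalling, rose from 11.8 ± 1.40 to 38.2 ± 1.01 CPM (log2 change 1.75, adjusted p = 7.62e-08), and DUSP1, a MAP kinase phosphatase, from 18.5 ± 0.444 to 35.7 ± 1.79 CPM (log2 change 0.94, adjusted p = 0.0025). ETV1, an ETS factor, fell from 38.2 ± 1.90 to 24 ± 0.722 CPM (log2 change -0.67, adjusted p = 8.56e-04).

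Ligands, antagonists, receptors and targets of the BMP and TGF-beta pathways moved both ways, with 6 of 23 genes called higher and 2 lower. GREM1, an antagonist of BMP ligands, stood at 137, 136 and 116 CPM in the DMSO libraries and 319, 310.3 and 316 CPM in the HPPE libraries, without overlap (log2 fold change 1.26 ± 0.08 (SE), adjusted p = 1.86e-08). TGFB3, a ligand, went the other way and stood at 13, 11.7 and 14.7 CPM in the DMSO libraries and 4.88, 5.71 and 5.07 CPM in the HPPE libraries. The highest HPPE library was under the lowest DMSO library, and TGFB3 fell by a log2 fold change of -1.27 ± 0.17 (SE), adjusted p = 1.75e-04. TGFB2 stood at 39.7, 35.2 and 37 CPM in the DMSO libraries and 24.8, 27 and 29.8 CPM in the HPPE libraries. The groups did not overlap, and it fell by a smaller amount (log2 fold change -0.48 ± 0.11 (SE), adjusted p = 0.021), and the call was lost under 4 alternatives. BAMBI, a decoy receptor, rose from 55.3 ± 10.7 to 81.8 ± 4.91 CPM (log2 change 0.63, adjusted p = 0.002).

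Some of the largest increases lay outside these lists. F2RL2, a protease-activated receptor, rose from 1.48 ± 0.321 to 8.34 ± 1.27 CPM (log2 change 2.39, adjusted p = 5.65e-05). PTGS1, the constitutive cyclooxygenase, rose from 3.27 ± 0.405 to 13.6 ± 1.27 CPM (log2 change 2.02, adjusted p = 2.77e-05), and INSYN2B from 3.30 ± 0.474 to 13.6 ± 1.13 CPM (log2 change 2.12, adjusted p = 7.22e-07). VGF, a neuropeptide precursor of dense-core vesicles, stood at 456, 529 and 603 CPM in the DMSO libraries and 1263, 1220.4 and 1293 CPM in the HPPE libraries. Its groups did not overlap, and it was among the 8 genes that gained most CPM (log2 fold change 1.26 ± 0.17 (SE), adjusted p = 1.96e-04). VGF was also called higher with SnPP (log2 change 0.91, adjusted p = 0.0054) and was not with ZnPP (0.33, adjusted p = 0.30). SCG2, another granule protein, rose from 79.2 ± 15.5 to 120.2 ± 5.07 CPM (log2 change 0.65, adjusted p = 0.0015).

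The decreases were smaller, and few exceeded 2-fold. MAP2K6, a kinase that activates p38, stood at 175, 146 and 114 CPM in the DMSO libraries and 65.2, 64.4 and 65.5 CPM in the HPPE libraries. The DMSO libraries spread widely and the HPPE libraries hardly at all, with no overlap, and MAP2K6 fell by a log2 fold change of -1.19 ± 0.13 (SE), adjusted p = 2.62e-05. LDLRAD4, an inhibitor of TGF-beta signalling, fell from 25.6 ± 3.40 to 12.6 ± 0.780 CPM (log2 change -1.06, adjusted p = 2.71e-04). KIT, a receptor tyrosine kinase, fell from 10.2 ± 0.764 to 4.74 ± 0.765 CPM (log2 change -1.04, adjusted p = 0.0057), and MYRIP, a linker of vesicles to myosin, from 13.5 ± 2.15 to 6.29 ± 0.799 CPM (log2 change -0.98, adjusted p = 0.0062). LDLRAD4 and KIT were also called lower with SnPP against the same DMSO libraries (log2 change -0.90 and -0.94) and not with ZnPP. MAP2K6 and MYRIP were called with neither. DRGX, a homeobox factor, fell from 7.94 ± 1.57 to 3.82 ± 0.632 CPM (log2 change -1.08, adjusted p = 0.0035). The NMDA receptor subunit GRIN2C fell from 5.31 ± 0.425 to 2.47 ± 0.268 CPM (log2 change -1.03, adjusted p = 0.014), a call lost under 3 alternatives. For LINC02269, MROH6, BNC2 and ADORA2A the calls were lost under 8, 9, 7 and 8 alternatives.

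Of the genes called lower whose libraries did not overlap, the axon guidance ligand SLIT3 lost most CPM. It stood at 721, 658 and 564 CPM in the DMSO libraries and 417, 410.2 and 435 CPM in the HPPE libraries, without overlap, and fell by a log2 fold change of -0.63 ± 0.10 (SE), adjusted p = 9.87e-04. IGFBP5, a binding protein of insulin-like growth factors, fell from 369.8 ± 28.8 to 258 ± 10.6 CPM (log2 change -0.53, adjusted p = 0.0017), KCTD12, an auxiliary subunit of GABA-B receptors, from 443 ± 56.0 to 306 ± 2.55 CPM (log2 change -0.54, adjusted p = 0.0018), and SLC4A8, a bicarbonate transporter, from 272 ± 29.5 to 179 ± 9.75 CPM (log2 change -0.61, adjusted p = 7.66e-04). TBC1D16, KIF26B, ADCY1 and DYNLL2 fell as well, with calls lost under 7, 7, 5 and 2 alternatives. Over all tested genes 1.47% were called lower and 2.57% higher. Of 50 axon guidance genes 3 fell and 1 rose (EPHA2), with a median of -0.07. Of 34 voltage-gated channels 3 fell and 2 rose, with a median of -0.09. Of 22 genes of noradrenergic identity 3 fell and 2 rose. Among the 3 that fell were ALK (log2 change -0.39, adjusted p = 0.028) and the noradrenaline transporter SLC6A2 (-0.38, adjusted p = 0.008), and their calls were lost under 7 and 1 alternatives.

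Small shifts over whole lists stood without any call. Over all tested genes 8552 of 16366 had positive values. None of the 13 protein-coding genes of mitochondrial DNA had a positive value and none was called by edgeR or DESeq2, with 2 lower at an unadjusted p under 0.05 and a median of -0.24. Of 74 nuclear genes of the respiratory chain 66 had positive values and none was called by either tool, with 8 higher at an unadjusted p under 0.05 and a median of 0.23. Of 76 cytosolic ribosomal protein genes 72 had positive values, none was called by either tool and none had an unadjusted p under 0.05 (median 0.10). The median transcript length was 784 bases in the mitochondrial list, 1510.5 in the respiratory list and 1841.5 in the ribosomal list, against 3327 over all tested genes, and with the trend on length and GC content removed the medians were -0.29, 0.17 and 0.05.

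Libraries of 1 group differed from each other with transcript length, and the fold changes shifted with length as well. Length was taken from GENCODE release 29 (the longest annotated transcript per gene), known for 16185 tested genes, which were divided into 5 groups of about equal size. In each library the median deviation from the mean of all libraries was taken per length group, and the longest group minus the shortest gave 0.23, 0.10 and -0.28 in DMSO 1, 2 and 3 and -0.03, -0.18 and -0.22 in HPPE 1, 2 and 3 (log2 scale). DMSO 3, the shallowest of the 6, leaned the same way as the HPPE libraries. The groups overlapped in this measure. The median log2 fold change of HPPE against DMSO went from 0.13 in the shortest group (up to 1770 bases) through 0.09, 0.02 and -0.02 to -0.09 in the longest (from 5667 bases), a difference of -0.23. Without DMSO 1 the difference was -0.12 and across the removals of the 6 libraries it reached -0.32. Spearman's rho between log2 fold change and length was -0.24 over the 16185 genes and -0.37 over the 10918 with a mean above 8 CPM, as a description across genes of the same libraries.

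Genes called lower grew in number with transcript length, and genes called higher were fewest in the shortest group. From the shortest to the longest group 43, 101, 112, 84 and 81 genes were called higher and 5, 17, 31, 77 and 111 were called lower. The median length of the genes called lower was 5465 bases, that of the genes called higher 3447 and that of all tested genes 3327. When each library's trend on length and then on GC content was taken out, the medians of the 5 groups lay between -0.01 and 0.02, and 707 genes (4.32%) were called higher and 513 (3.13%) lower. These included 412 of the 421 genes called higher before and 232 of the 241 called lower. The correction called 204 lower and 200 higher in the longest group, against 21 and 52 in the shortest. How far the shift with length reflects the compound was not tested.

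**Figure D4:**
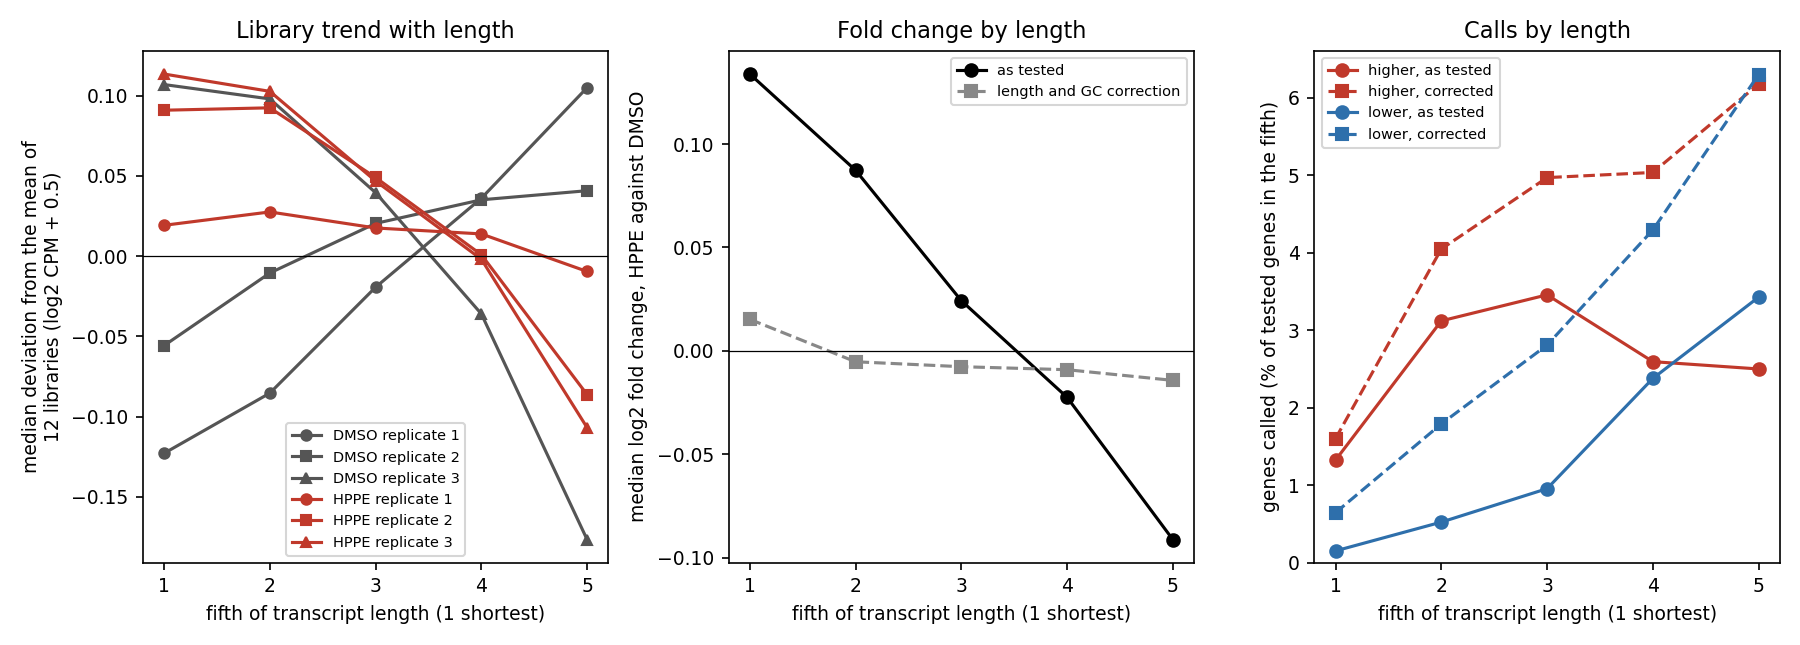
The left panel gives, for each of the 6 libraries, the median deviation of genes in 5 groups of transcript length (1 shortest), the middle panel the median log2 fold change per group, and the right panel the share of genes called, as tested (solid) and after the length and GC correction (dashed). The fold change falls from 0.13 to -0.09 as tested and stays between -0.01 and 0.02 once corrected.

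After correction 20 of 33 cytosolic chaperones, 5 of 13 glutathione genes, 11 of 22 detoxification genes, 7 of 22 genes of the unfolded protein response in the endoplasmic reticulum and 4 of 14 TRiC and prefoldin subunits were called higher. The corrected log2 fold change was 2.58 for GCLM, 1.77 for TXNRD1, 0.92 for HSPA8, -1.03 for SLC39A10 and -1.09 for MAP2K6, against 2.58, 1.77, 0.97, -1.02 and -1.19 as tested. Among the shortest transcripts, taken as 1 of 3 equal groups, the largest decreases were those of LINC02269, TSSK4, ADCK2 and ACBD7, whose calls were lost under 8, 11, 10 and 8 alternatives.

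HPPE 2 and 3, the most alike pair, were also summed and counted as 1 library, which leaves 1 HPPE library fewer. Over all tested genes 285 were then called higher (1.74%) and 99 lower (0.605%), all among the 421 and 241 called before. In this fit 15 cytosolic chaperones, 8 detoxification genes, 4 glutathione genes, 6 metal-response genes and 6 MAP kinase feedback genes were called higher, and the decrease of SLC39A10 was still called. The numbers called higher were 7 of the 22 SRF and YAP targets, 5 of the 21 immediate early genes, 4 of the 23 heme and iron genes, 3 of the 23 TGF-beta family genes, 2 of the 13 NRF2 regulators and 1 of the 22 genes of the unfolded protein response. Those called lower were 1 each in the axon guidance and noradrenergic lists and none of 34 voltage-gated channels. Whether the lists differed in the calls they lost was not tested.

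HPPE was also tested directly against the other compounds. Against ZnPP 2078 genes differed (12.7% of the tested genes) and against SnPP 238 (1.45%). With the replicate number as a block these came to 758 and 139. Once length and GC content were corrected for, they were 2388 and 498. Against ZnPP 1054 were higher with HPPE (6.44%) and 1024 lower (6.26%), and against SnPP 122 were higher (0.745%) and 116 lower (0.709%). The contrast with ZnPP carried a difference of -0.26 between the longest and the shortest transcripts and that with SnPP -0.08. Of the 33 cytosolic chaperones 21 were higher with HPPE than with ZnPP and 13 than with SnPP, and none was lower. Of the 10 metal-response genes 6 were higher and 1 lower in each of these contrasts. Detoxification genes were higher for 11 and 7 of 22, glutathione genes for 5 and 4 of 13.

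HSPA8 was one of the chaperones that differed from both. It stood at 1121, 1123 and 1079 CPM in the ZnPP libraries and 1202, 1058 and 1117 CPM in the SnPP libraries, all below the HPPE libraries, and HPPE exceeded them by a log2 difference of 0.98 ± 0.08 (SE), adjusted p = 3.21e-06, and of 0.95 ± 0.08 (SE), adjusted p = 2.81e-06. SLC39A10 stood at 70.8, 86.2 and 83.7 CPM with ZnPP and 89.1, 91.6 and 90.2 CPM with SnPP, all above the HPPE libraries (log2 difference -1.02 ± 0.11 (SE), adjusted p = 4.94e-05, and -1.15 ± 0.11 (SE), adjusted p = 5.04e-06). SLC7A11 stood at 41.4, 12.8 and 12.8 CPM with ZnPP, where replicate 1 was apart from the other 2, and at 12.4, 13.6 and 10.7 CPM with SnPP. HPPE was above every one of these libraries (log2 difference 2.50 ± 0.25 (SE), adjusted p = 1.62e-05, and 2.92 ± 0.23 (SE), adjusted p = 1.34e-06). MAP2K6 was lower with HPPE than with either compound (log2 difference -1.14 ± 0.13 (SE), adjusted p = 9.02e-05, and -0.81 ± 0.13 (SE), adjusted p = 0.0024).

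SRF and YAP targets had calls both ways in the direct test against ZnPP, a larger share than over all tested genes, and none in that against SnPP. Of 22 SRF and YAP targets 4 were higher and 2 lower with HPPE than with ZnPP, against 6.44% and 6.26% of all tested genes. None passed the threshold against SnPP by edgeR or DESeq2, and 7 had an unadjusted p under 0.05. Of all tested genes 1.45% passed it by edgeR, so none of 22 is near the share over all genes. Set against the shared DMSO libraries, 7 of these targets were called higher with ZnPP (background 1.84%) and 12 with SnPP (1.9%). GREM1 stood at 303, 306 and 295 CPM with ZnPP and 318, 330.4 and 324 CPM with SnPP, close to the HPPE libraries. The difference of HPPE from ZnPP was 0.06 with a 95% interval of -0.09 to 0.22, adjusted p = 0.59, and from SnPP -0.04 with a 95% interval of -0.20 to 0.11, adjusted p = 0.85. For VCL it was -0.01 with a 95% interval of -0.19 to 0.16, adjusted p = 0.93, and -0.04 with a 95% interval of -0.21 to 0.14, adjusted p = 0.89. For SPRY1 the difference from ZnPP was 0.27 with a 95% interval of 0.05 to 0.49, adjusted p = 0.087, and from SnPP -0.01 with a 95% interval of -0.21 to 0.20, adjusted p = 0.99. For TXNIP, which fell with HPPE, these differences were -0.03 with a 95% interval of -0.30 to 0.23, adjusted p = 0.89, and -0.11 with a 95% interval of -0.36 to 0.14, adjusted p = 0.72.

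The TGF-beta ligand TGFB2 followed neither pattern. It was lower than DMSO with HPPE but stood at 43.7, 59.1 and 53.3 CPM with ZnPP and 54.4, 58.8 and 55.5 CPM with SnPP, above every DMSO library. HPPE differed from them by a log2 difference of -1.01 ± 0.11 (SE), adjusted p = 4.03e-05, and of -1.07 ± 0.10 (SE), adjusted p = 8.41e-06. TRAF1, an NF-kB target, rose with HPPE from 5.51 ± 1.85 to 9.69 ± 1.20 CPM (log2 change 0.97, adjusted p = 0.017), and was lower than with ZnPP (log2 difference -0.85 ± 0.18 (SE), adjusted p = 0.011) and SnPP (-0.94 ± 0.17 (SE), adjusted p = 0.0062).

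**Figure D5:**
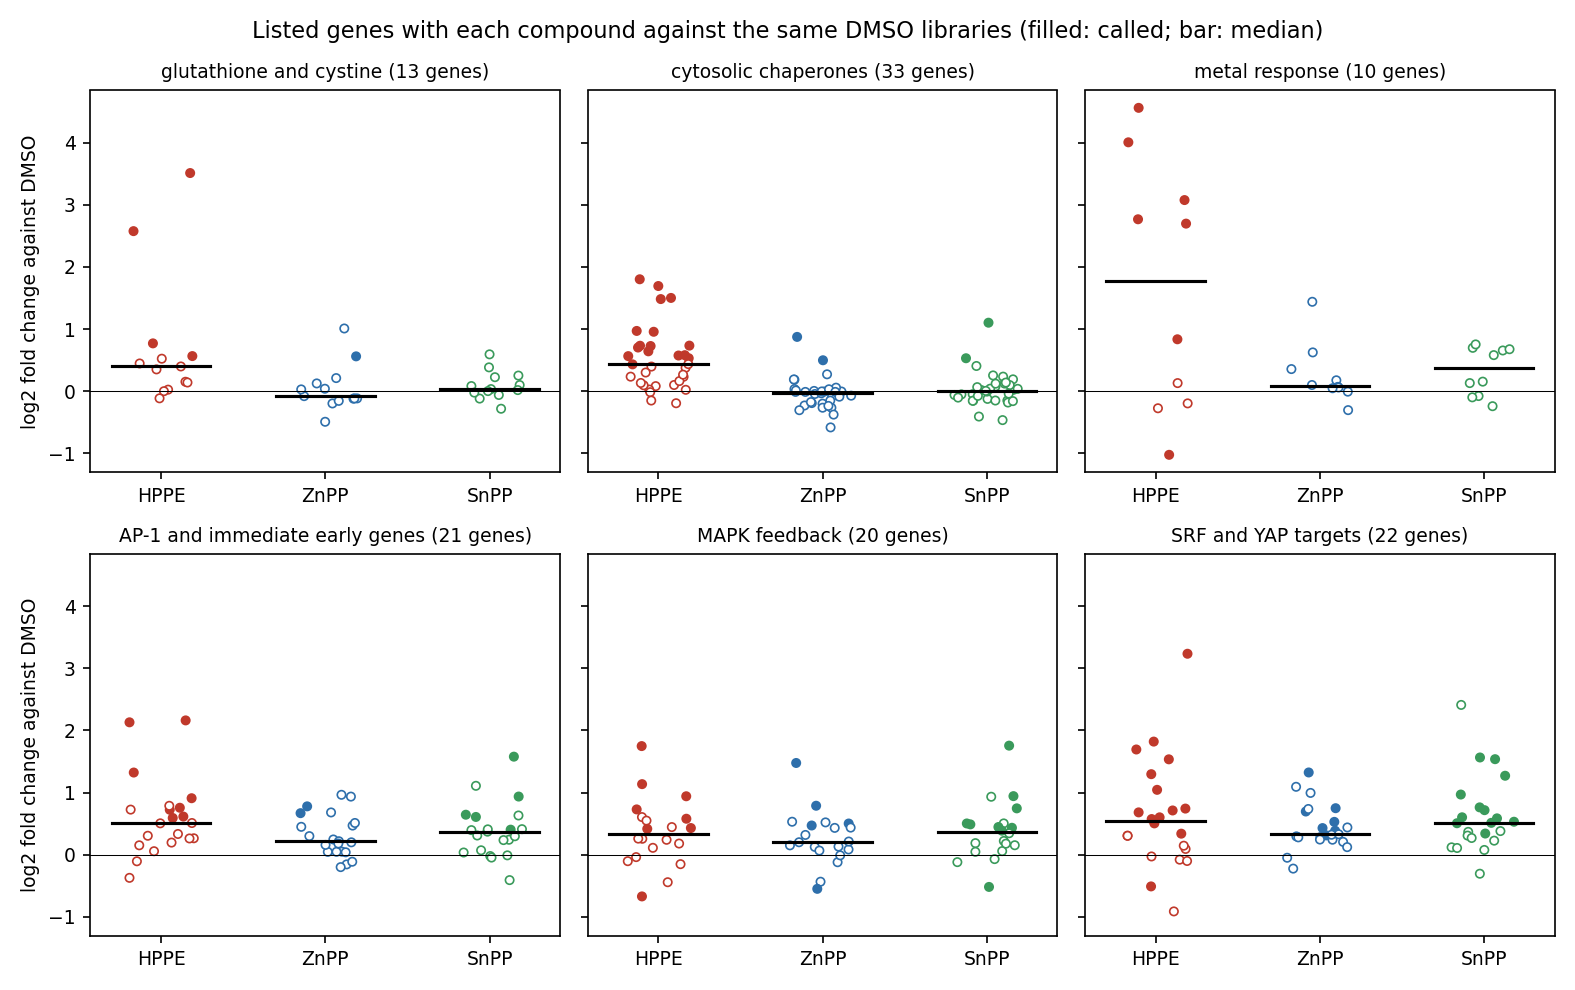
Log2 fold change against the same 3 DMSO libraries for each tested gene of 6 lists with HPPE, ZnPP and SnPP, filled where called, with a bar at the median. Chaperones and metal-response genes are filled for 16 of 33 and 7 of 10 genes with HPPE, for 2 and 0 with each of the others, and SRF and YAP targets for 15, 7 and 12 of 22 genes with HPPE, ZnPP and SnPP.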

How the data were processed

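The deposited table gives unnormalized read counts, 1 column a library. Libraries were made with the MGIEasy kit, per the labels' protocols. The submitters' processing notes name fastp 0.21.1, STAR 2.7.7a, featureCounts and the build GRCh38, with no order or settings. The annotation and the strand setting are not given in the sources used here. Of 60710 Ensembl identifiers, 60481 matched a symbol.

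Counts were tested with edgeR 4.0.16 in R 4.3.3: filterByExpr by group (16366 genes, 99.6% of counts), TMM scaling, 1 mean per group over all 12 libraries, robust quasi-likelihood fit, glmQLFTest (two-sided) and Benjamini-Hochberg adjustment over all tested genes. Genes with an adjusted p under 0.05 were called higher or lower. Errors are SE from the F statistic, or SD over 3 libraries for CPM. The biological coefficient of variation was 0.0913. The procedure was tested on simulated data.

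Members and the 34 gene lists were chosen with earlier results of these data known, so lists are described by counts and medians only. The genes named are HMOX1, NRF2 regulators and listed genes, and, among called genes with libraries that did not overlap and at least 5 CPM in 1 group, the 12 largest changes each way, the 8 largest in CPM and the 4 largest in each of 3 length groups. A few genes that this rule takes in are not reported here.

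Alternatives were no filter, 1 CPM in 3 libraries, RLE factors, unscaled libraries, DESeq2 1.42.0 (adjusted p given as NA left out), the 6 libraries alone, non-robust estimation, the replicate block, lowess correction on length and GC content (span 0.3), both together, a library axis (first principal component of deviations from group means over 10972 genes), HPPE 2 and 3 summed, and leaving out each library. Promoters came from RefSeq (GRCh38.p14).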

Additional observations from a re-analysis of the deposited data

How the results depend on the processing

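For 421 genes called higher and 241 called lower with HPPE, the length and GC correction gave 707 and 513 and the library axis as a term 1449 and 1223. Without 1 library in turn they ran from 215 to 559 and from 66 to 475, and the cause was not tested. Genes called lower came to 374 with no filter and to 99 with HPPE 2 and 3 summed, a fit with 1 HPPE library fewer. The length difference of -0.23 was -0.0295 once corrected, by construction, and -0.32 to -0.12 without 1 library in turn. HPPE against SnPP, 238 genes as tested, gave 498 after the length and GC correction.

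Same-numbered DMSO and HPPE libraries had deviations from their group means that correlated at 0.52, -0.16 and 0.32, so the numbers were not taken as pairs. With the replicate block 294 of the 421 higher and 118 of the 241 lower genes were called, and with the block and the length and GC correction 565 and 355. The block gave 758 genes for HPPE against ZnPP (2078 without it) and 139 against SnPP. No direction reversed. Over the named genes and alternatives 14801 values stayed on their side of the threshold, 464 lost it and 365 gained it. A depth of 1514595 counts in DMSO 3 limits genes near 1.91 CPM.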

Other observations

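Cell cycle, lipid and clock genes were measured as well. Over all tested genes HPPE raised 2.57% and lowered 1.47%. Of 26 S-phase genes 1 rose, RRM2, a subunit of ribonucleotide reductase, and its call was lost under 9 of 18 alternatives. None of 26 mitotic genes was called by edgeR or DESeq2, with 4 lower at an unadjusted p under 0.05 and a median log2 fold change of -0.12. None of 19 circadian clock genes was called by either tool, with 3 higher and 1 lower at an unadjusted p under 0.05. Of 23 genes of sterol synthesis and uptake 5 rose with HPPE. Against the shared DMSO libraries the same list had 3 called higher with ZnPP (background 1.84%) and 9 with SnPP (1.9%). Of 28 genes of hypoxia and glycolysis 4 rose, led by PFKFB3, which makes an activator of glycolysis (log2 fold change 0.80 ± 0.09 (SE), adjusted p = 4.18e-05). Of 25 p53 targets 2 rose, PLK2 (1.10 ± 0.14 (SE), adjusted p = 1.01e-04) and GADD45A (0.93 ± 0.15 (SE), adjusted p = 0.0016), and 1 fell.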
